A study of Danio rerio with 14 samples.

Results

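The hox genes encode homeodomain transcription factors that give cells along the head-to-tail axis their regional identity. They lie in clusters, and within a cluster the paralogue number runs from 1 at the end used in the hindbrain to 13 at the end used in the tail, so that low-numbered genes switch on earlier and further forward than high-numbered ones. Zebrafish carry 7 such clusters, named aa, ab, ba, bb, ca, cb and da, because the teleost genome was duplicated, and many paralogues therefore exist as an a and a b copy. Members were all genes of the count table whose symbol is hoxa, hoxb, hoxc or hoxd followed by a paralogue number and a copy letter. There were 49 of them among 36109 genes: 14 anterior genes (paralogues 1 to 4), 12 central genes (5 to 8) and 23 posterior genes (9 to 13). All 49 passed the filter on low counts, and all 49 were found in the RefSeq table, where each cluster lay on 1 chromosome.

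RNA came from whole zebrafish embryos at 24 and 48 hours post fertilization (hpf). The mutants are labelled as a CRISPR/Cas9 knockout of mttp, which encodes the microsomal triglyceride transfer protein that loads lipid onto apolipoprotein B, and the siblings are the untreated comparison group. There were 4 libraries of each genotype at 24 hpf and 3 of each at 48 hpf. The sources used here give neither the allele, nor the genetic makeup of the siblings, nor the number of embryos per library. Replicates are not stated to be separate clutches, so p-values cover only the spread among these libraries, which may be technical. Batch labels coincide with stage, and the effects of stage and batch cannot be told apart. In whole embryos, fewer cells of a type and less RNA per cell cannot be told apart either. 

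Library totals ran from 29422983 to 46534187 counts, and the hox genes took between 0.0600% and 0.0920% of them. As a check of the labels, mttp was at 67.6, 67.3, 79.6 and 70.3 CPM (read counts scaled to the normalized library size) in sibling replicates 1 to 4 and at 9.05, 7.90, 10.5 and 11.3 CPM in mutant replicates 1 to 4 at 24 hpf. At 48 hpf it was at 30.3, 19.3 and 38.5 CPM in siblings and at 11.4, 7.53 and 6.23 CPM in mutants, so mttp was lower in every mutant library than in any sibling library of its stage. A pair of libraries stood apart by a low share of mitochondrial counts: replicate 2 of the siblings at 24 hpf, with 0.888%, and their replicate 3 at 48 hpf, with 0.721%, against 1.32% to 2.03% in the other 12. Sibling replicate 3 at 48 hpf was also the lowest of its group for 32 of the 49 hox genes and the highest for 13. This was not particular to it: mutant replicate 3 at 48 hpf, with 1.34% mitochondrial counts, was lowest for 27 and highest for 6.

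The calls among the hox genes were between stages. From 24 to 48 hpf 14 genes fell in both genotypes, from all 3 classes. They were the anterior genes hoxb1a, hoxb1b, hoxc1a, hoxa2b and hoxc3a, and the central genes hoxb6a, hoxc6b and hoxb7a. The posterior ones were hoxd9a, hoxb10a, hoxd10a and the tail genes hoxc12b, hoxa13a and hoxc13a. Genes that rose in both were hoxc4a, hoxb5a and hoxb6b. Some calls were weak: in siblings those of hoxa13a and hoxb6b held in 6 and 8 of 15 alternative fits. Members of 1 paralogue group could move in opposite directions, and no test of the stage change against paralogue number was made. The ratio of the a to the b copy moved between stages in 8 of 11 pairs. That comparison was chosen after the data were seen, and no share over other pairs of genes was taken. Between mutants and siblings no hox gene passed the test at either stage in the main fit. Summed over the 49 genes, the level was 807 ± 39.6 CPM (SD, n = 4) in siblings and 881 ± 5.16 CPM (n = 4) in mutants at 24 hpf, and 699 ± 50.6 CPM (n = 3) and 725 ± 39.4 CPM (n = 3) at 48 hpf. The ranges of the summed level did not overlap between genotypes at 24 hpf (769 to 861 CPM against 875 to 886 CPM) and overlapped at 48 hpf (641 to 729 CPM against 681 to 758 CPM). Taken singly, 13.6% of all genes tested and 10.2% of the hox genes did not overlap at 24 hpf. The sum gives most weight to abundant genes such as hoxb3a, hoxc1a, hoxa3a and hoxb1b. Each of these overlapped between genotypes at 24 hpf.

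Calls were made with edgeR's quasi-likelihood test at a Benjamini-Hochberg adjusted p under 0.05 over the 24424 genes tested, and changes are log2 fold changes ± SE from that fit. In siblings 5 of the 49 hox genes rose from 24 to 48 hpf and 16 fell, where 26.2% of all genes tested rose and 26.3% fell. In mutants 3 rose and 21 fell, where 23.6% of all genes rose and 19.6% fell. The share called in either direction was 42.9% in siblings, against 52.4% of all genes, and 49.0% in mutants, against 43.2%. Split by direction, 10.2% of the hox genes rose and 32.7% fell in siblings, and 6.12% rose and 42.9% fell in mutants, so rises were fewer than over all genes. The median hox change was -0.33 in siblings and -0.34 in mutants, against -0.04 and -0.0020 over all genes. Without both libraries of low mitochondrial share the sibling median was -0.13, with 8 rises and 12 falls. Leaving out sibling replicate 1 at 48 hpf left 3 rises in siblings; leaving out mutant replicate 1 at 48 hpf left 1 rise in mutants, and leaving out mutant replicate 3 left 12 falls. Called in every alternative in both genotypes were the rise of hoxc4a and the falls of hoxb1a, hoxb1b, hoxc1a, hoxa2b, hoxc3a, hoxc6b, hoxb7a, hoxd10a and hoxc13a. Sibling and mutant stage changes share no library: 43 of 49 genes had the same sign in both, 3 rose in both, 14 fell in both and 0 were called in opposite directions. The 17 genes shared were 81.0% of the sibling calls and 70.8% of the mutant calls, and across the 49 genes, which are not independent and share the scaling of the libraries, Pearson's r of the changes was 0.920. This agreement was not computed over all genes tested, so it is not shown to be particular to hox genes. Batch coincides with stage in both genotypes.

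**Figure D1:**
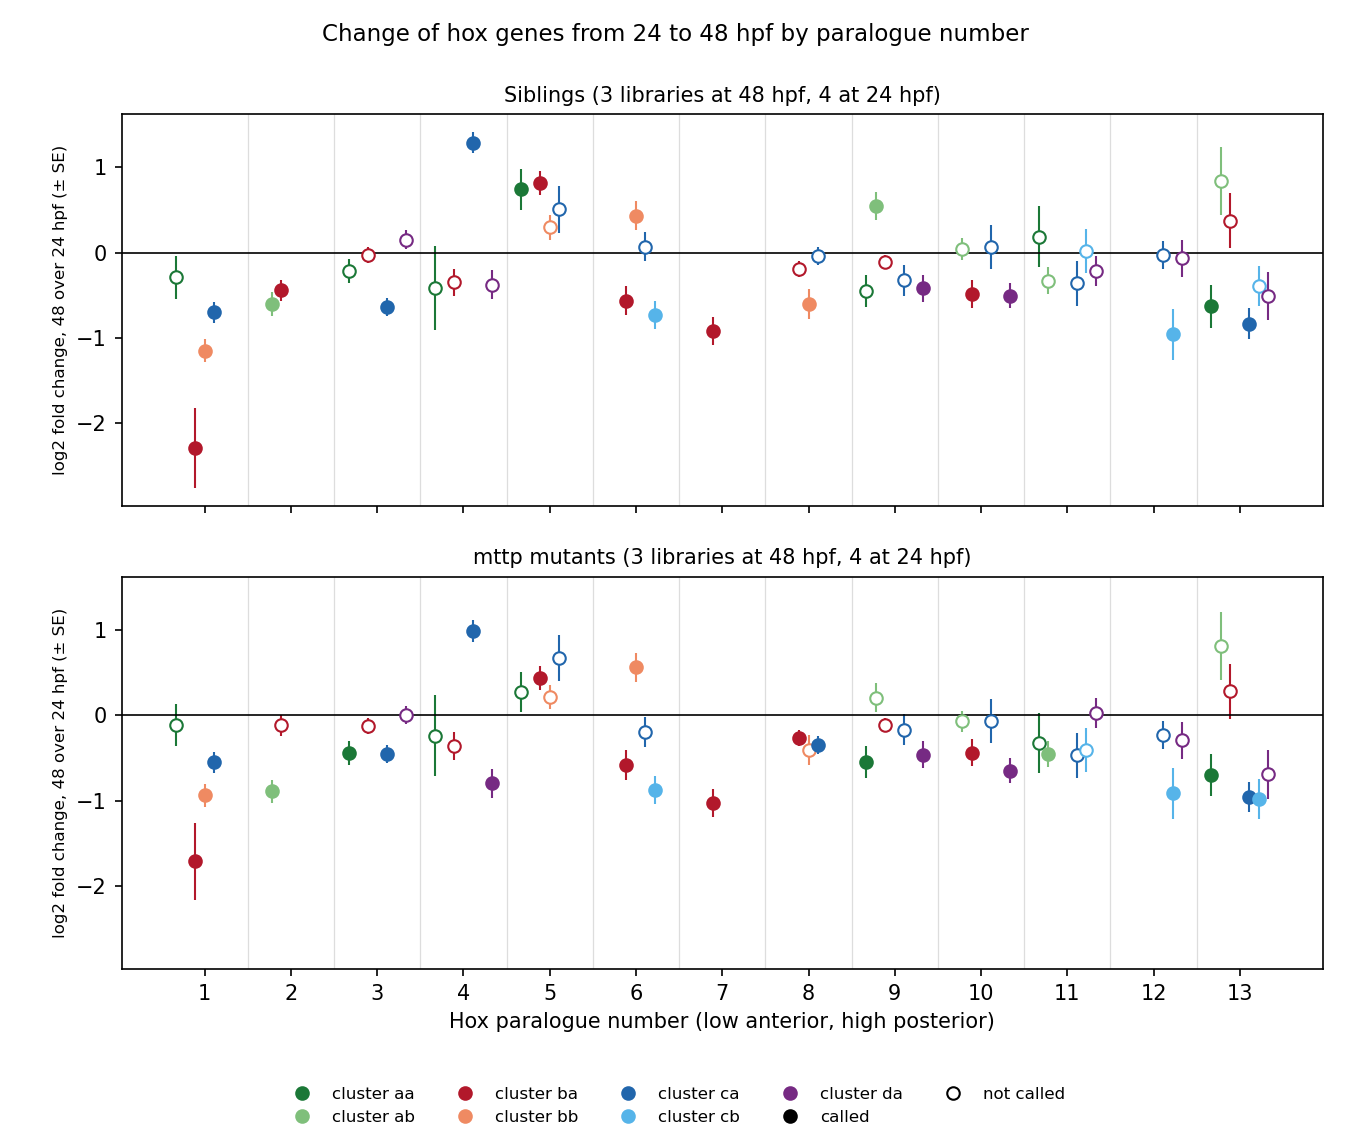
Log2 fold change (48 over 24 hpf, ± SE) of each of the 49 hox genes by paralogue number, in siblings (top) and mutants (bottom), coloured by cluster; filled points passed the test. In both panels the paralogue 1 genes lie below 0, down to -2.29 for hoxb1a in siblings, the paralogue 5 genes lie above 0, and hoxc4a stands highest, at 1.29 in siblings and 0.99 in mutants.

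Among the anterior genes, hoxb1a fell furthest. This gene sets the identity of rhombomere 4, the hindbrain segment that makes facial motor neurons. It was at 4.48, 2.96, 2.17 and 4.29 CPM in the sibling libraries at 24 hpf and at 0.945, 1.04 and 0.184 CPM at 48 hpf, a change of -2.29 ± 0.47 (adjusted p = 0.000589). In mutants it went from 4.65, 3.73, 3.57 and 4.19 CPM to 0.754, 1.16 and 1.78 CPM, a change of -1.71 ± 0.45 (adjusted p = 0.00514). No library at 48 hpf reached the level of any library at 24 hpf, but reads were few, down to 8 in sibling replicate 3 at 48 hpf. Its copy hoxb1b, which acts earlier in the hindbrain and is needed to start hoxb1a, was at 69.4, 51.5, 54.7 and 57.9 CPM in siblings at 24 hpf and at 31.5, 27.4 and 20.2 CPM at 48 hpf. The mutant libraries held 65.7, 63.9, 63.3 and 62.9 CPM and then 31.9, 37.5 and 30.8 CPM. The changes of hoxb1b were -1.15 ± 0.14 in siblings (adjusted p = 2.11e-06) and -0.94 ± 0.14 in mutants (adjusted p = 2.64e-05), with no overlap between stages in either genotype. The annotated span of hoxb1b overlaps those of 5 other genes, hoxb5b and hoxb6b among them. Exons were not compared, so its reads may not all be its own. The paralogue 1 gene hoxc1a fell by less, with -0.70 ± 0.12 in siblings and -0.55 ± 0.12 in mutants, and hoxa1a did not pass the test in either genotype (-0.29 ± 0.25 and -0.11 ± 0.25).

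The paralogue 2 genes hoxa2b and hoxb2a give the second pharyngeal arch, the forerunner of the hyoid skeleton, its identity. The level of hoxa2b was 13.9, 14.3, 12.3 and 12.7 CPM in siblings at 24 hpf and 7.65, 7.64 and 10.9 CPM at 48 hpf; the change was -0.60 ± 0.14 (adjusted p = 0.00138), and in mutants it was -0.89 ± 0.14 (adjusted p = 5.62e-05). For hoxb2a the sibling change was -0.44 ± 0.12 (adjusted p = 0.00563), while the mutant value of -0.12 ± 0.12 did not pass (adjusted p = 0.469). The difference between these changes was 0.32 ± 0.17 and was not called (adjusted p = 0.387). Paralogue 3 genes, used in the posterior hindbrain and the posterior arches, were mixed. Only hoxc3a was called in both genotypes (-0.63 ± 0.11 and -0.45 ± 0.11), hoxa3a fell in mutants (-0.44 ± 0.14, adjusted p = 0.0162; up to 0.102 without mutant replicate 1 or 3 at 48 hpf), and hoxb3a and hoxd3a stayed between -0.12 and 0.15 without a call.

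Paralogue 4 genes act in the caudal hindbrain and anterior spinal cord, and their members moved in opposite directions. The rise of hoxc4a was the largest among the hox genes. It was at 12.3, 9.05, 9.53 and 11.5 CPM in siblings at 24 hpf and at 24.9, 24.7 and 27.9 CPM at 48 hpf. Mutants went from 11.3, 12.0, 12.98 and 13.4 CPM to 26.3, 22.8 and 24.9 CPM. Every library at 48 hpf was above every library at 24 hpf, and the changes were 1.29 ± 0.13 in siblings (adjusted p = 2.00e-07) and 0.99 ± 0.13 in mutants (adjusted p = 6.07e-06). In contrast hoxd4a fell in mutants (-0.79 ± 0.17, adjusted p = 0.00101), with a sibling value of -0.38 ± 0.17 that did not pass (adjusted p = 0.0693). That sibling value rests on the library with the lowest mitochondrial share: hoxd4a was at 7.71, 9.52 and 13.5 CPM in sibling replicates 1 to 3 at 48 hpf, and the gene passed without replicate 3, without sibling replicate 2 at 24 hpf and without both of these low libraries. The values of hoxb4a were -0.35 ± 0.16 and -0.36 ± 0.16, and those of hoxa4a, at about 1 CPM or less, -0.42 ± 0.49 and -0.24 ± 0.47; neither was called.

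All 4 paralogue 5 genes had positive stage values in both genotypes. In zebrafish, genes of the ba and bb clusters, hoxb5a and hoxb5b among them, act in the lateral plate where the pectoral fin forms. The level of hoxb5a was 13.4, 12.9, 13.4 and 12.96 CPM in siblings at 24 hpf and 20.5, 27.8 and 21.1 CPM at 48 hpf. In mutants it was 12.8, 15.8, 13.8 and 16.6 CPM and then 22.4, 21.1 and 16.6 CPM. It rose by 0.81 ± 0.14 in siblings (adjusted p = 0.000103) and by 0.44 ± 0.14 in mutants (adjusted p = 0.0168), where the lowest library at 48 hpf equalled the highest at 24 hpf. The mutant call was lost without mutant replicate 1 or 3 at 24 hpf or mutant replicate 1 at 48 hpf (adjusted p up to 0.0700). For hoxa5a the libraries held 3.91, 2.93, 4.06 and 4.38 CPM in siblings at 24 hpf and 8.36, 6.73 and 4.08 CPM at 48 hpf. Its sibling change of 0.74 ± 0.24 was called (adjusted p = 0.0144), although sibling replicate 3 at 48 hpf lay among the 24 hpf values; without sibling replicate 1 at 48 hpf the adjusted p was 0.116. The mutant libraries held 6.58, 4.70, 5.39 and 5.33 CPM and then 7.80, 6.59 and 5.55 CPM, a value of 0.27 ± 0.23 that did not pass. The other two, hoxb5b and hoxc5a, ranged from 0.21 to 0.67 without a call.

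Paralogues 6 to 8 pattern the trunk. The only member of paralogue 7, hoxb7a, was at 13.3, 14.3, 12.6 and 12.1 CPM in siblings at 24 hpf and at 7.20, 6.44 and 7.02 CPM at 48 hpf. In mutants it was at 12.96, 12.2, 12.3 and 12.2 CPM and then at 8.15, 4.99 and 5.22 CPM. The stages did not overlap in either genotype, and the changes were -0.92 ± 0.16 (adjusted p = 0.000138) and -1.02 ± 0.16 (adjusted p = 7.39e-05). Within paralogue 6 the members split. For hoxb6b the sibling libraries held 7.88, 7.75, 7.32 and 8.30 CPM and then 12.6, 11.7 and 7.32 CPM, a rise of 0.43 ± 0.17 (adjusted p = 0.0439). The mutant libraries held 8.85, 8.14, 8.55 and 9.78 CPM and then 14.7, 12.9 and 11.5 CPM, a rise of 0.56 ± 0.17 (adjusted p = 0.0123). The sibling call is weak: it was lost in limma-voom and on leaving out any sibling library other than replicate 3 at 48 hpf, with adjusted p up to 0.226, and the mutant call was lost without mutant replicate 1 at 48 hpf (0.0547). Its copy hoxb6a fell in both genotypes (-0.56 ± 0.17 and -0.58 ± 0.17), calls lost without both low libraries (0.0592) and without mutant replicate 3 at 48 hpf (0.0974). So did hoxc6b, which was at 15.1, 16.9, 17.3 and 16.2 CPM in siblings at 24 hpf and at 8.81, 8.22 and 12.5 CPM at 48 hpf. Its mutant libraries held 20.2, 17.2, 20.9 and 16.0 CPM and then 12.0, 9.70 and 8.82 CPM, and the changes were -0.73 ± 0.16 and -0.87 ± 0.16, with adjusted p = 0.00110 and 0.000312. Of paralogue 8, hoxb8b fell in siblings (-0.60 ± 0.17, lost without both low libraries), and hoxb8a and hoxc8a fell in mutants (-0.26 ± 0.09 and -0.34 ± 0.11). The hoxb8a call was lost in 4 of 15 alternatives, no low-count filter among them (adjusted p up to 0.278), and that of hoxc8a without any 1 of the 3 mutant libraries at 48 hpf (up to 0.0810).

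Posterior genes pattern the caudal trunk, the tail and the fins. In siblings 6 of the 23 fell and 1 rose, with a median of -0.33; the 26.1% that fell is close to the 26.3% of all genes, while 4.35% rose against 26.2%. In mutants 9 fell and 0 rose, with a median of -0.41, so 39.1% fell against 19.6% of all genes. Without both low libraries the sibling median was -0.08. Falls were not particular to posterior genes. Of the 14 anterior genes 6 fell and 1 rose in siblings, and 7 fell and 1 rose in mutants. Of the 12 central genes 4 fell and 3 rose in siblings, and 5 fell and 2 rose in mutants. The anterior median was -0.40 in each genotype, and the central medians were 0.015 in siblings and -0.23 in mutants. Among the tail genes, hoxc13a was at 12.2, 8.04, 10.7 and 9.49 CPM in siblings at 24 hpf and at 6.40, 5.75 and 4.91 CPM at 48 hpf. Mutants held 13.8, 11.5, 10.7 and 15.7 CPM and then 6.93, 6.45 and 6.60 CPM. It fell without overlap in both genotypes, with changes of -0.83 ± 0.18 (adjusted p = 0.000803) and -0.96 ± 0.18 (adjusted p = 0.000298). The sibling libraries held 5.08, 4.20, 3.54 and 4.29 CPM of hoxc12b at 24 hpf and 2.56, 2.80 and 1.29 CPM at 48 hpf. Mutants held 4.17, 4.43, 5.57 and 4.74 CPM and then 2.00, 3.60 and 1.92 CPM. Both changes of hoxc12b were called, at -0.96 ± 0.30 (adjusted p = 0.0124) and -0.91 ± 0.30 (adjusted p = 0.0186). They were lost without sibling replicate 3 (0.0544), without both low libraries (0.0868) or without mutant replicate 1 or 3 at 48 hpf (0.102 and 0.109).

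The copy hoxc13b fell in mutants, from 7.06, 6.88, 7.28 and 5.33 CPM to 3.42, 3.93 and 2.76 CPM (-0.98 ± 0.24, adjusted p = 0.00279). In siblings it went from 7.44, 7.75, 6.27 and 5.05 CPM to 4.15, 4.03 and 6.93 CPM and did not pass (-0.39 ± 0.23, adjusted p = 0.170); without replicate 3 at 48 hpf, which alone stayed at the earlier level, it did (0.0170). Fin and caudal trunk genes called lower in both genotypes were hoxd9a, hoxb10a, hoxd10a and hoxa13a, with changes from -0.42 to -0.69. The sibling calls of hoxd9a and hoxa13a held in 6 of 15 alternatives each, and that of hoxb10a was lost without sibling replicate 3 at 48 hpf and without both low libraries. The mutant calls of hoxa13a, hoxb10a and hoxd9a held in 9, 10 and 13 of 15. The one posterior rise was hoxa9b in siblings, from 13.5, 15.1, 13.3 and 10.3 CPM to 16.0, 16.0 and 24.9 CPM (0.54 ± 0.16, adjusted p = 0.0104). Without replicate 3 at 48 hpf the change was 0.29 (adjusted p = 0.104), the only alternative of 15 in which the call was lost; without both low libraries it was 0.42 (adjusted p = 0.0233). In mutants hoxa9b did not pass (0.21 ± 0.17). Further falls in mutants were hoxa9a and hoxa11b (-0.55 ± 0.19 and -0.45 ± 0.16), calls lost in 5 and 3 of 15 alternatives (adjusted p up to 0.137 and 0.149). The remaining 13 posterior genes were called in neither genotype; the values of hoxa13b were 0.83 ± 0.40 and 0.81 ± 0.40, at no more than 5.70 CPM in any library. Tailbud markers moved with these falls: tbxta, tbx16 and msgn1 all fell in both genotypes, from a summed 41.1 to 52.3 CPM over the libraries at 24 hpf to 11.4 to 18.4 CPM at 48 hpf, with none at 0. These genes are also on the list of trunk and tail inputs below. Marker sums of other tissues moved as well. In siblings those of muscle (5499 to 7283 CPM, then 20077 to 22284 CPM), neural tissue and spinal cord rose without overlap. Those of the hatching gland and pronephros fell without overlap. The part of these tissues in the posterior hox falls was not tested.

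**Figure D2:**
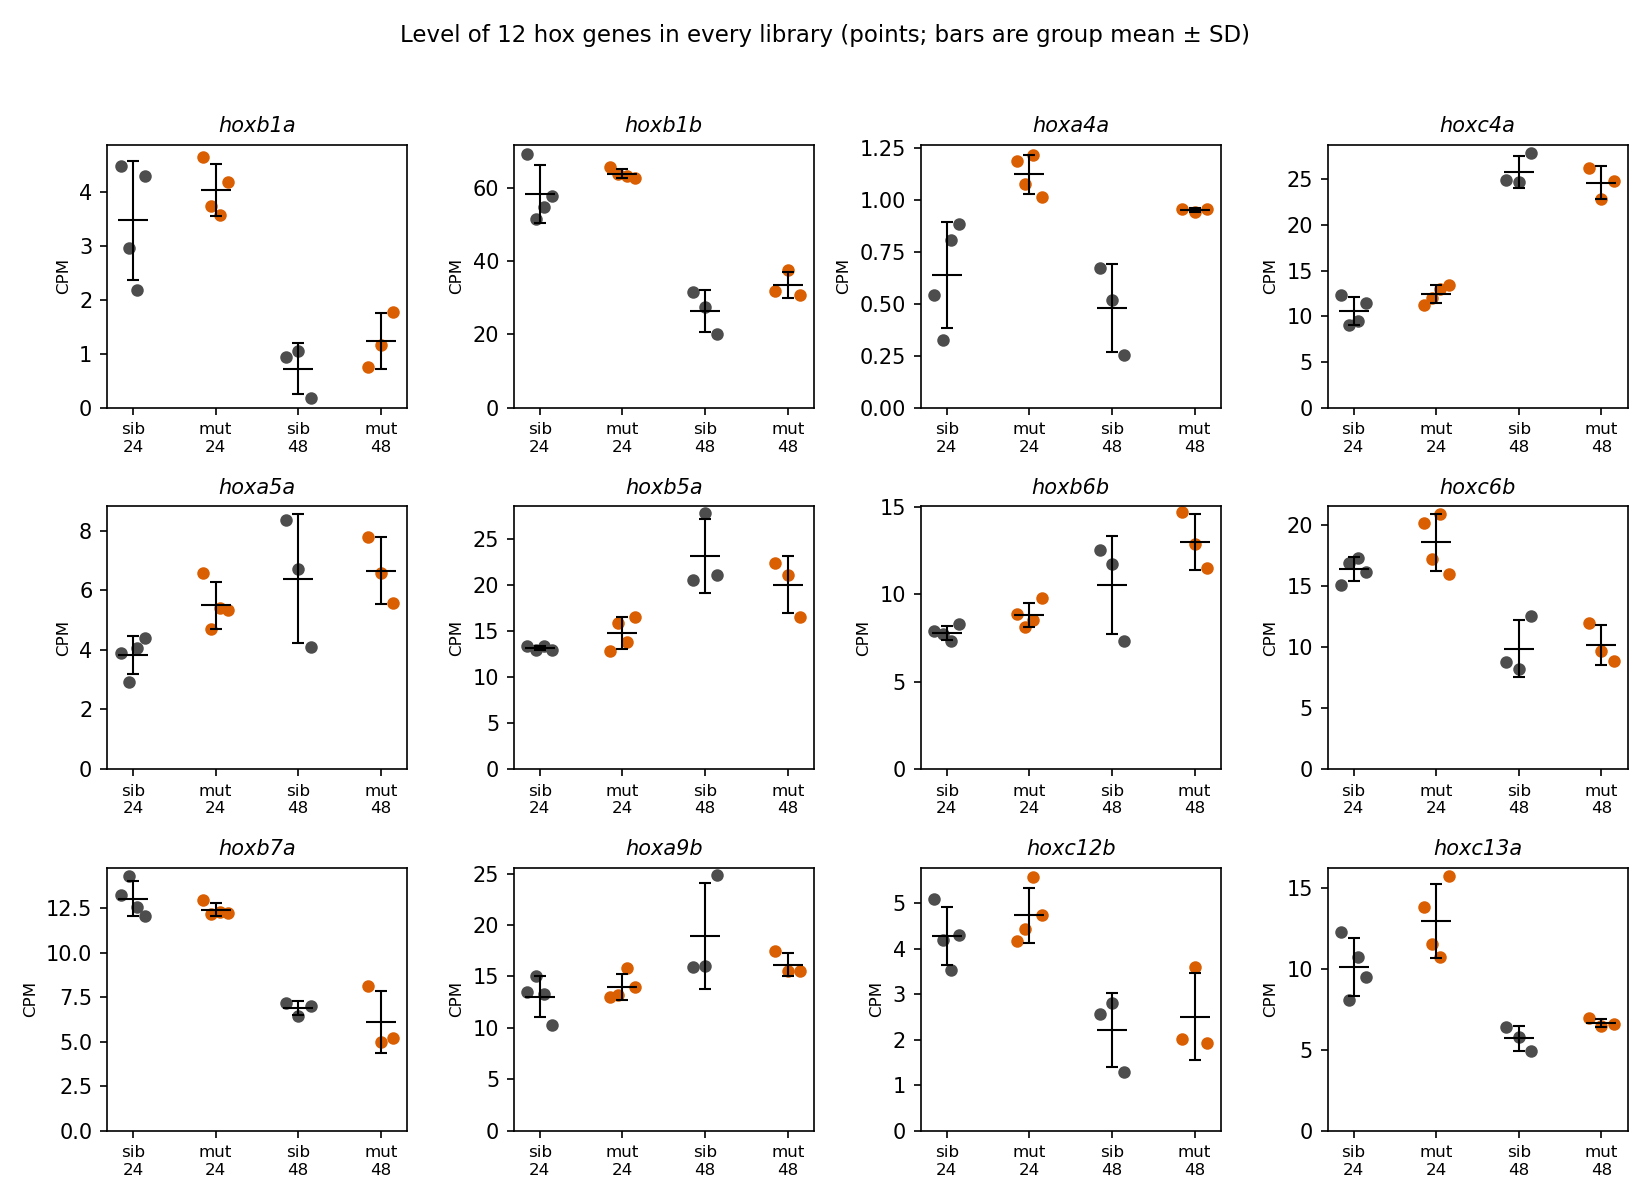
CPM of 12 hox genes in each of the 14 libraries (points), by genotype and stage in hpf, with the group mean ± SD. Within each genotype the 48 hpf libraries lie below the 24 hpf libraries for hoxb1a, hoxb1b, hoxc6b, hoxb7a, hoxc12b and hoxc13a and above them for hoxc4a; mutants and siblings overlap at both stages except for hoxa4a and, at 1 stage, hoxa5a and hoxc13a.

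No difference in stage change between genotypes was called for any hox gene: 0 of 49, where 2.43% of all genes were called higher and 0.737% lower. The 4 genes called in siblings alone (hoxb2a, hoxa5a, hoxb8b, hoxa9b) and the 7 called in mutants alone (hoxa3a, hoxd4a, hoxb8a, hoxc8a, hoxa9a, hoxa11b, hoxc13b) are therefore not shown to differ between genotypes. The smallest adjusted p for this difference was 0.340, for hoxc8a (-0.30 ± 0.15), a trunk gene that was at 31.6, 26.9, 27.4 and 28.4 CPM in siblings and 33.9, 31.8, 33.1 and 30.1 CPM in mutants at 24 hpf. At 48 hpf it was at 29.6, 30.4 and 23.5 CPM and 25.8, 24.7 and 25.6 CPM. The next were hoxb2a (0.32 ± 0.17), hoxb5a (-0.37 ± 0.20), hoxc13b (-0.59 ± 0.33), hoxd4a (-0.42 ± 0.24) and hoxc4a (-0.30 ± 0.18), with adjusted p from 0.387 to 0.471. No gene reached an unadjusted p under 0.05 in this test. The 95% interval of the difference lay within a 2-fold change either way for 40 of the 49 genes.

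The ratio of an a copy to its b copy within a library does not depend on how libraries are scaled. Gene length bears on the ratio itself but not on its change between stages. More reads of a copy therefore need not mean more transcripts of it. The ratio was compared between stages for the 11 genes that have both copies, a comparison chosen after the data were seen. Values are log2 ratios of counts with 0.5 added; the 8 libraries at 24 hpf and the 6 at 48 hpf were compared by a two-sided exact permutation test, adjusted over the 11 copy pairs, for which the smallest possible p was 0.000666. The ratio moved in 8 of 11 pairs, with the same sign in siblings and mutants for all 8. No such share was taken over other pairs of genes. Of all genes tested, 52.4% were called between stages in siblings and 43.2% in mutants. The count is therefore not shown to be particular to hox copies. For hoxb6a against hoxb6b it went from 0.38 ± 0.19 (SD, n = 8) to -0.66 ± 0.32 (n = 6), so that the copy with more reads switched from a to b (exact permutation, adjusted p = 0.00244). The ratio of hoxa9a to hoxa9b went from -0.23 ± 0.22 (n = 8) to -1.08 ± 0.14 (n = 6, exact permutation, adjusted p = 0.00244). For hoxc12a against hoxc12b it went the other way, from 1.38 ± 0.22 (n = 8) to 2.23 ± 0.31 (n = 6, exact permutation, adjusted p = 0.00244). In these 3 pairs no library at 48 hpf overlapped the libraries at 24 hpf.

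The shift was largest for hoxa13a against hoxa13b, genes of the fin and the tail, at -1.44 (exact permutation, adjusted p = 0.00366), with few reads for both copies (down to 34 in a library). For hoxb1a against hoxb1b it was -1.1 (exact permutation, adjusted p = 0.00488), so reads of hoxb1a fell by more than reads of hoxb1b. The annotated span of hoxb1b overlaps those of hoxb5b and hoxb6b, which limits this ratio. Reads of hoxb1a went down to 8 in a library, and without sibling replicate 3 at 48 hpf the shift was -0.79. For hoxc6a against hoxc6b it was 0.76 (exact permutation, adjusted p = 0.00440). These 6 pairs were called in all 16 alternatives tried. Smaller shifts of hoxb5a against hoxb5b (0.37) and hoxb8a against hoxb8b (0.27), both with an exact permutation adjusted p of 0.0284, were lost in 5 and 4 of the alternatives. The ratios of hoxa11a to hoxa11b, hoxc11a to hoxc11b and hoxc13a to hoxc13b were not called, with adjusted exact permutation p from 0.313 to 0.531. The sources used here do not say how reads shared between copies were counted, which limits these ratios.

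**Figure D3:**
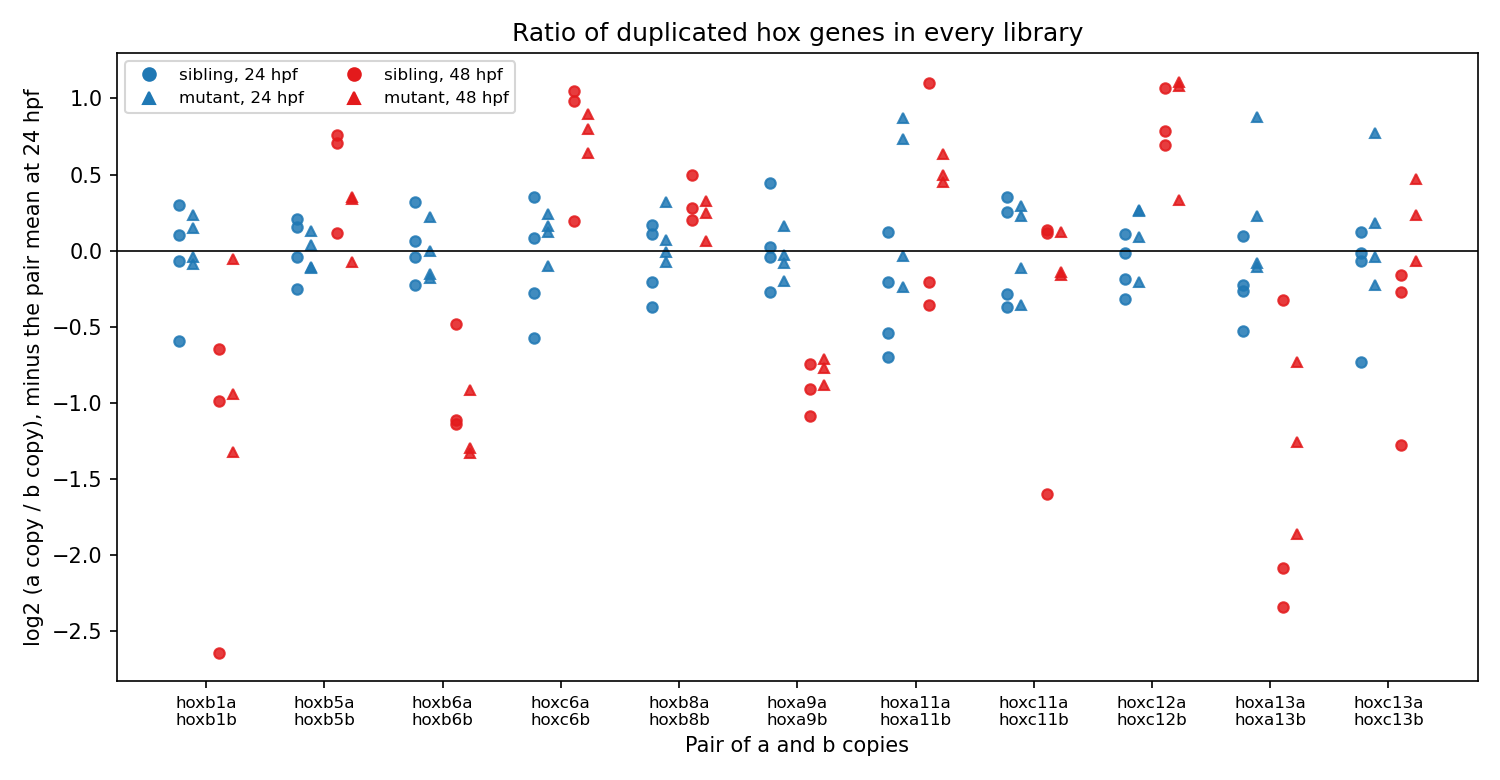
Log2 ratio of the a to the b copy in each library, minus the mean of the pair at 24 hpf, for 11 pairs; blue points are 24 hpf, red points 48 hpf, circles siblings and triangles mutants. The red points lie apart from the blue ones for hoxb6, hoxa9 and hoxc12, with shifts of -1.05, -0.85 and 0.85, and overlap them in the other pairs.

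Mutants were compared with siblings at each stage to ask whether axial patterning genes differ in embryos labelled as mttp knockouts. At 24 hpf 0 of 49 hox genes were called, where 1.50% of all genes were higher and 2.33% lower. At 48 hpf 0 of 49 were called, where 4.26% were higher and 1.80% lower. DESeq2 and limma-voom, also fitted without a replicate block, called 0 at either stage, while some alternative fits, given below, made calls. At an unadjusted p under 0.05, edgeR gave 6 higher and 0 lower at 24 hpf and 3 higher and 1 lower at 48 hpf, and the smallest adjusted p was 0.224 and 0.105. The 95% interval of the change lay within a 2-fold change either way for 46 of 49 genes at each stage, and within 1.5-fold for 31 genes at 24 hpf and 27 at 48 hpf. The exceptions to the 2-fold bound were hoxb1a and hoxa4a at both stages, hoxa11a at 24 hpf and hoxc13b at 48 hpf.

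The hox values leaned upward in mutants at 24 hpf without any single gene passing. There 39 values were positive and 10 negative, so 79.6% were positive against 49.5% of all genes. These values come from the same libraries and are not independent. Their median was 0.13 against -0.0028 over all genes. The hox median was 0.14 with RLE size factors and 0.23 by library size alone, when that of all genes was 0.099. In 5 genes (hoxa2b, hoxa4a, hoxa5a, hoxc12a, hoxa13a) all 4 mutant libraries lay above all 4 sibling libraries, and in 0 genes they lay below; groups without overlap were 10.2% of the hox genes and 13.6% of all genes. At 48 hpf 29 values were positive and 20 negative (59.2% positive against 49.4% of all genes), with a median of 0.04. All mutant libraries lay above all siblings for 6 genes (hoxc1a, hoxb2a, hoxc3a, hoxa4a, hoxd11a, hoxc13a) and below for 2 (hoxd10a, hoxc13b), together 16.3% of the hox genes against 22.5% of all genes. By class the medians at 24 hpf were 0.20 for anterior, 0.17 for central and 0.04 for posterior genes, and at 48 hpf 0.11, 0.07 and 0.016. Without both low libraries the central median at 48 hpf was -0.07.

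**Figure D4:**
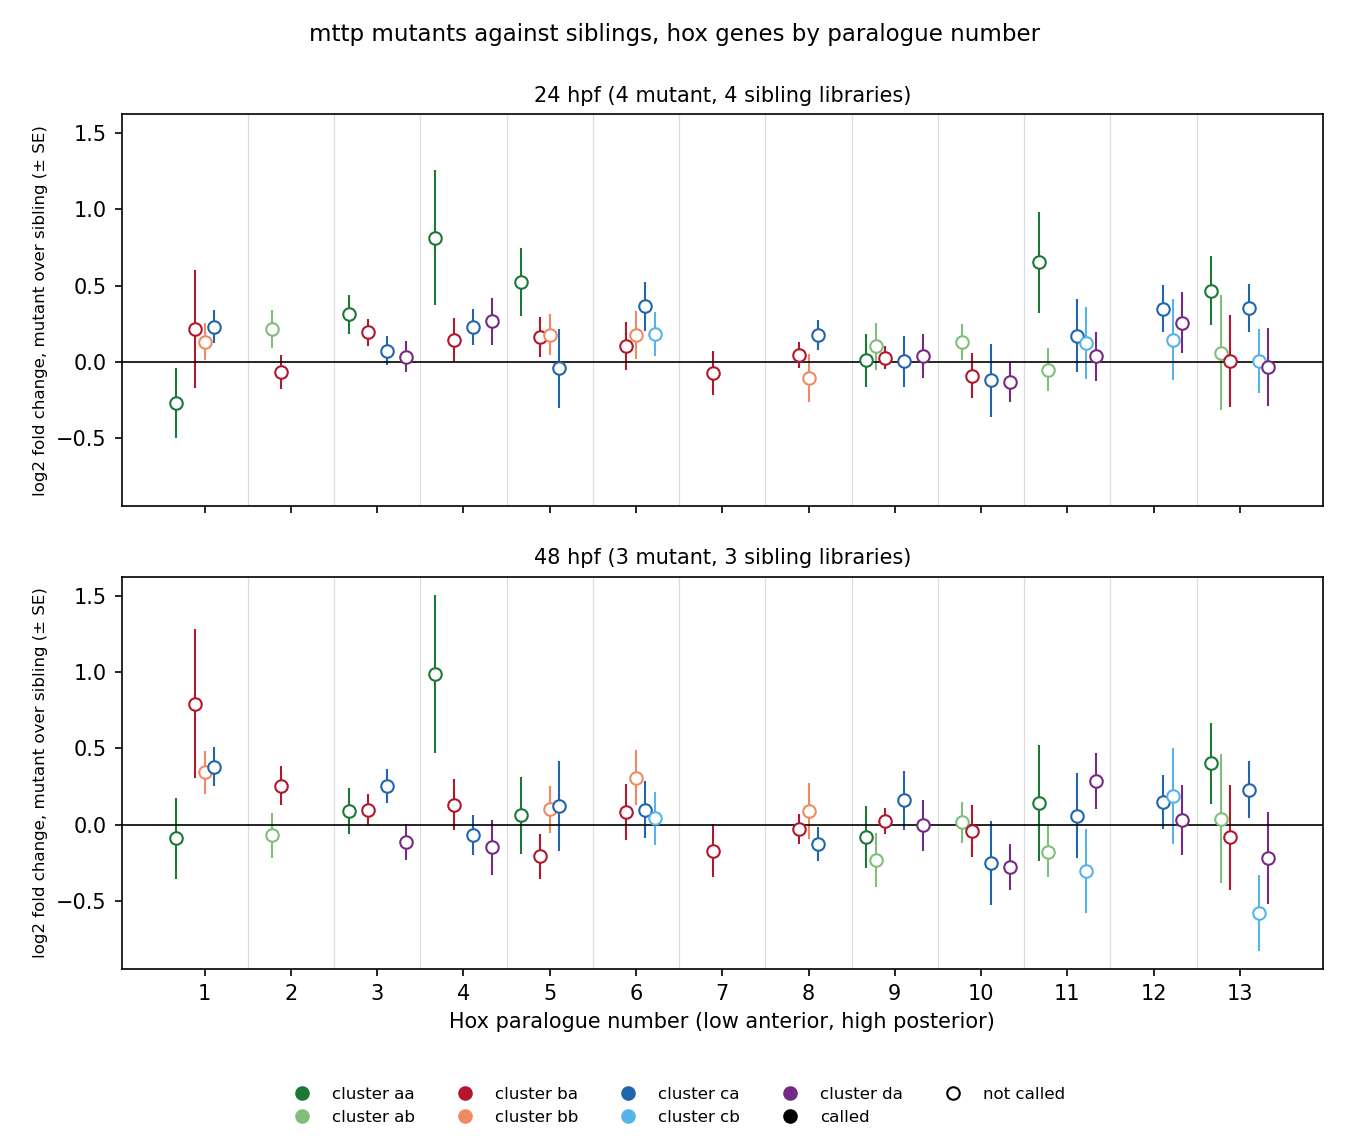
Log2 fold change (mutant over sibling, ± SE) of the 49 hox genes by paralogue number, at 24 hpf (top) and 48 hpf (bottom), coloured by cluster. All points are open because no gene passed the test; values run from -0.27 to 0.81 at 24 hpf and from -0.58 to 0.99 at 48 hpf, with hoxa4a highest at both.

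The genes with the smallest p at 24 hpf were hoxa3a, hoxa5a, hoxc12a, hoxc6a, hoxc13a and hoxb3a, none of which passed in the main fit. An alternative edgeR fit used the 24 hpf libraries only, with a replicate block. That fit called hoxa3a (0.34, adjusted p = 0.0282), hoxb3a (0.21, adjusted p = 0.0498) and hoxc1a (0.25, adjusted p = 0.0298) higher in mutants. Replicate numbers were not shown to pair the libraries, although 14 of 14 libraries correlated best with their own number in the other genotype. If the numbers do pair the libraries, the main fit leaves that pairing out. The block over all libraries gave no mutant call. It joins equal numbers of both stages, which no label links, so it cannot decide on pairing within a stage. The hindbrain and arch gene hoxa3a was at 42.5, 30.0, 35.8 and 44.0 CPM in siblings and at 50.4, 47.0, 43.3 and 48.2 CPM in mutants (0.31 ± 0.13, adjusted p = 0.224). Its groups overlapped in mutant replicate 3 alone. For hoxa5a, whose span overlaps that of hoxa3a in the annotation, the values printed above gave 0.52 ± 0.22 (adjusted p = 0.238). The tail gene hoxc12a was at 10.6, 11.8, 9.12 and 9.82 CPM in siblings and 13.03, 13.9, 12.6 and 13.2 CPM in mutants (0.35 ± 0.15, adjusted p = 0.261), with no overlap. Without both low libraries it was called, at 0.44 (adjusted p = 0.0424), the only hox call of that fit at 24 hpf. For hoxc6a the libraries held 10.04, 5.91, 7.45 and 8.94 CPM and 9.82, 10.1, 11.9 and 9.88 CPM, with overlap, and the value was 0.37 ± 0.16, or 0.24 without sibling replicate 2. Those of hoxc13a and hoxb3a were 0.35 ± 0.16 and 0.19 ± 0.09; hoxb3a held 100.2, 81.4, 87.3 and 90.4 CPM in siblings and 111, 97.2, 96.1 and 107 CPM in mutants, which overlapped.

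At 48 hpf the smallest p belonged to hoxc1a, hoxb1b, hoxc13b, hoxc3a, hoxb2a and hoxa4a. The sibling libraries held 33.1, 40.0 and 29.9 CPM of hoxc1a and the mutant libraries 40.5, 48.6 and 44.8 CPM, without overlap, for 0.38 ± 0.13 with a 95% interval from 0.11 to 0.65 (adjusted p = 0.105). It was called on leaving out sibling replicate 2 (0.51, adjusted p = 0.0375). At 24 hpf hoxc1a was at 56.8, 47.7, 60.7 and 57.6 CPM in siblings and 64.9, 55.4, 71.1 and 70.1 CPM in mutants, with overlap (0.23 ± 0.11). Its paralogue hoxb1b gave 0.34 ± 0.14, with 1 mutant library below 1 sibling library, and 0.18 without sibling replicate 3. For hoxc13b the value was -0.58 ± 0.25 (adjusted p = 0.221), and sibling replicate 3, which has the lowest mitochondrial share, was the library furthest from the mutants; without it the value was -0.28 (adjusted p = 0.642). For hoxc3a the sibling libraries held 25.0, 25.8 and 22.2 CPM and the mutant libraries 25.9, 33.5 and 27.6 CPM (0.25 ± 0.11), and for hoxb2a 12.3, 10.9 and 12.96 CPM and 14.2, 14.5 and 14.5 CPM (0.26 ± 0.13), both without overlap; without both low libraries hoxc3a was at 0.16.

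The paralogue 4 gene hoxa4a was the only member with all mutant libraries above all sibling libraries at both stages, which held for 1.79% of all genes; 0 hox genes lay below at both. It was at 0.540, 0.325, 0.807 and 0.882 CPM in siblings and 1.19, 1.08, 1.22 and 1.01 CPM in mutants at 24 hpf. At 48 hpf it was at 0.671, 0.520 and 0.252 CPM and 0.957, 0.942 and 0.959 CPM. These are 11 to 47 reads per library, and the values of 0.81 ± 0.44 and 0.99 ± 0.52 had adjusted p = 0.402 and 0.339. The annotated span of hoxa4a overlaps those of hoxa3a and evx1, and counts are not stated to use strand. Of the 49 hox genes 31 have a span that overlaps another annotated gene, 18 of them another hox gene. These are whole spans, introns included, from another genome build than the counts. Exons were not compared, so reads in any shared exons could have been counted for either gene or for none.

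Genes that act with or upstream of hox genes were followed as lists. The TALE homeodomain cofactors (pbx, meis and pknox genes), which bind DNA beside Hox proteins, gave 8 of 14 genes higher and 3 lower between stages in each genotype. That is 57.1% higher and 21.4% lower, against the shares over all genes of 26.2% and 26.3% in siblings and 23.6% and 19.6% in mutants, with medians of 1.1 in siblings and 0.91 in mutants. The greatest support was for pbx1a (2.07 ± 0.12 and 1.76 ± 0.12) and meis2b (1.31 ± 0.09 and 1.22 ± 0.09). Of the trunk and tail inputs 6 of 10 tested were lower and 2 higher in each genotype. The 6 are 60.0% of the list. Those that fell include cdx4, an activator of posterior hox genes (-4.83 ± 0.28 and -4.07 ± 0.26), and msgn1, a factor of presomitic mesoderm (-4.65 ± 0.35 and -4.62 ± 0.36), while gdf11, which in mice advances posterior Hox expression, rose (0.88 ± 0.10 and 1.24 ± 0.10). Of 16 genes of retinoic acid supply and reception, 8 fell and 2 rose in siblings and 5 fell and 2 rose in mutants (31.2% fell and 12.5% rose in mutants). The smallest p belonged to the retinaldehyde reductase gene dhrs3a (-1.37 ± 0.17 and -1.12 ± 0.16) and the retinoic acid binding protein gene crabp2b (0.70 ± 0.10 and 0.65 ± 0.10).

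Of the hindbrain segmentation factors 7 of 10 were lower and 0 higher in siblings, and 6 and 0 in mutants, so that 70.0% and 60.0% fell against 26.3% and 19.6% of all genes. The factor of rhombomeres 3 and 5, egr2b, fell with changes of -3.33 ± 0.30 in siblings and -3.87 ± 0.31 in mutants. The receptor gene epha4a, whose product helps keep rhombomere boundaries sharp, fell in both (-0.64 ± 0.10 and -0.57 ± 0.10), as did irx1b (-0.77 ± 0.14 and -1.16 ± 0.14). Summed egr2b and mafba, used as hindbrain markers, were at 27.2 to 46.7 CPM at 24 hpf and 30.7 to 38.9 CPM at 48 hpf over both genotypes, and their part in the hox falls was not tested. A list of 13 genes taken as linked to the hox clusters was also followed, without a check of their positions. Of these 5 rose and 4 fell in siblings, and 4 rose and 2 fell in mutants. The 30.8% and 15.4% that fell are near the shares over all genes, and 38.5% and 30.8% rose. Of these evx2, a homeobox gene at the posterior end of the hoxd cluster, rose most (2.89 ± 0.25 and 2.51 ± 0.24), and cbx1b rose as well (1.19 ± 0.14 and 0.93 ± 0.14). Among 23 Polycomb and trithorax regulators, which keep hox genes off or on, 10 fell and 5 rose in siblings and 11 fell and 3 rose in mutants. The falls were 43.5% and 47.8%, above the shares over all genes, and the 5 rises in siblings, at 21.7%, were below theirs. The Polycomb subunit gene phc2b (1.82 ± 0.18 and 1.59 ± 0.17) and the histone H3 demethylase gene kdm6bb (1.31 ± 0.13 and 0.89 ± 0.13) were among those that rose.

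Between mutants and siblings, these 6 lists gave 2 calls over both stages and 0 for the difference between stages. The calls were 1 of 13 genes listed as linked to hox clusters at 24 hpf and 1 of 14 TALE cofactors at 48 hpf. No other listed gene was called. Over all genes tested 3.82% were called at 24 hpf and 6.06% at 48 hpf, so these single calls do not set the lists apart. The RNA-binding protein gene hnrnpa1a, of the list linked to hox clusters, was lower in mutants at 24 hpf (-0.44 ± 0.10, adjusted p = 0.0161). It was at 333, 418, 348 and 329 CPM in siblings and 274, 258, 265 and 259 CPM in mutants. The cofactor gene meis3 was higher at 48 hpf, with 55.7, 51.8 and 55.4 CPM in siblings and 66.4, 68.2 and 67.0 CPM in mutants (0.31 ± 0.08, adjusted p = 0.0405). In both genes the groups did not overlap. Beside the mutant comparison at 48 hpf, the motor neuron and spinal cord markers isl1 (-0.49 ± 0.12) and olig2 (-0.51 ± 0.14) and the fin bud marker prdm1a (-0.64 ± 0.11) were lower in mutants. Of these, isl1 and olig2 are 2 of 4 spinal cord markers, summed at 96.6 to 137 CPM in siblings and 97.2 to 108 CPM in mutants. The other spinal cord markers were not called and overlapped between genotypes, with sibling replicate 3 lowest. Levels of nkx6.1 were 31.8, 25.1 and 13.7 CPM in siblings and 28.2, 30.5 and 30.2 CPM in mutants. Those of mnx1 were 6.13, 5.59 and 1.88 CPM and 5.77, 6.205 and 5.47 CPM. The gene prdm1a is 1 of 4 fin bud markers, summed at 48.5 to 55.6 CPM and 37.7 to 41.4 CPM. It alone of them did not overlap, at 26.35, 29.0 and 25.2 CPM and 19.6, 16.5 and 15.4 CPM. No marker was at 0, and their part in the hox values was not tested. No spinal cord, fin bud or tailbud marker was called at 24 hpf. There the fin bud sum was 54.4 to 62.8 CPM in siblings and 63.6 to 67.0 CPM in mutants. Most of that sum was prdm1a, at 41.98, 37.1, 34.97 and 39.05 CPM in siblings and 45.9, 47.1, 42.01 and 42.7 CPM in mutants. The genotypes overlapped for tbx5a, fgf24 and fgf10a.

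Markers of other tissues moved between genotypes as well. At 24 hpf, where the hox median was above 0, 2 of 4 markers of the yolk syncytial layer and liver were lower in mutants, tfa (-1.11 ± 0.14) and rbp4 (-1.50 ± 0.23), and the 4 summed to 12603 to 14914 CPM in siblings and 8699 to 11258 CPM in mutants. Of 3 pronephros markers cdh17 was lower (-0.37 ± 0.09), with sums of 138 to 151 CPM and 110.01 to 135 CPM. At 48 hpf cdh17 was higher (0.45 ± 0.11), with pronephros sums of 87.0 to 114 CPM in siblings and 121 to 136 CPM in mutants, and tfa was again lower (-2.08 ± 0.17). Of 3 hatching gland markers he1.1 and ctslb were higher (0.56 ± 0.08 and 1.097 ± 0.13), with sums of 345 to 385 CPM and 509.7 to 561 CPM. Of 4 neural markers 1, gfap, was lower (-0.54 ± 0.15), and 3 were not called. The neural sums overlapped, at 949 to 1215 CPM and 1119 to 1227 CPM. The sibling libraries held 168.7, 162.3 and 245.2 CPM of gfap, highest in replicate 3 of low mitochondrial share, and the mutant libraries 145, 123.5 and 127.9 CPM. None of these lists had a marker at 0, and their part in the hox values was not tested.

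**Figure D5:**
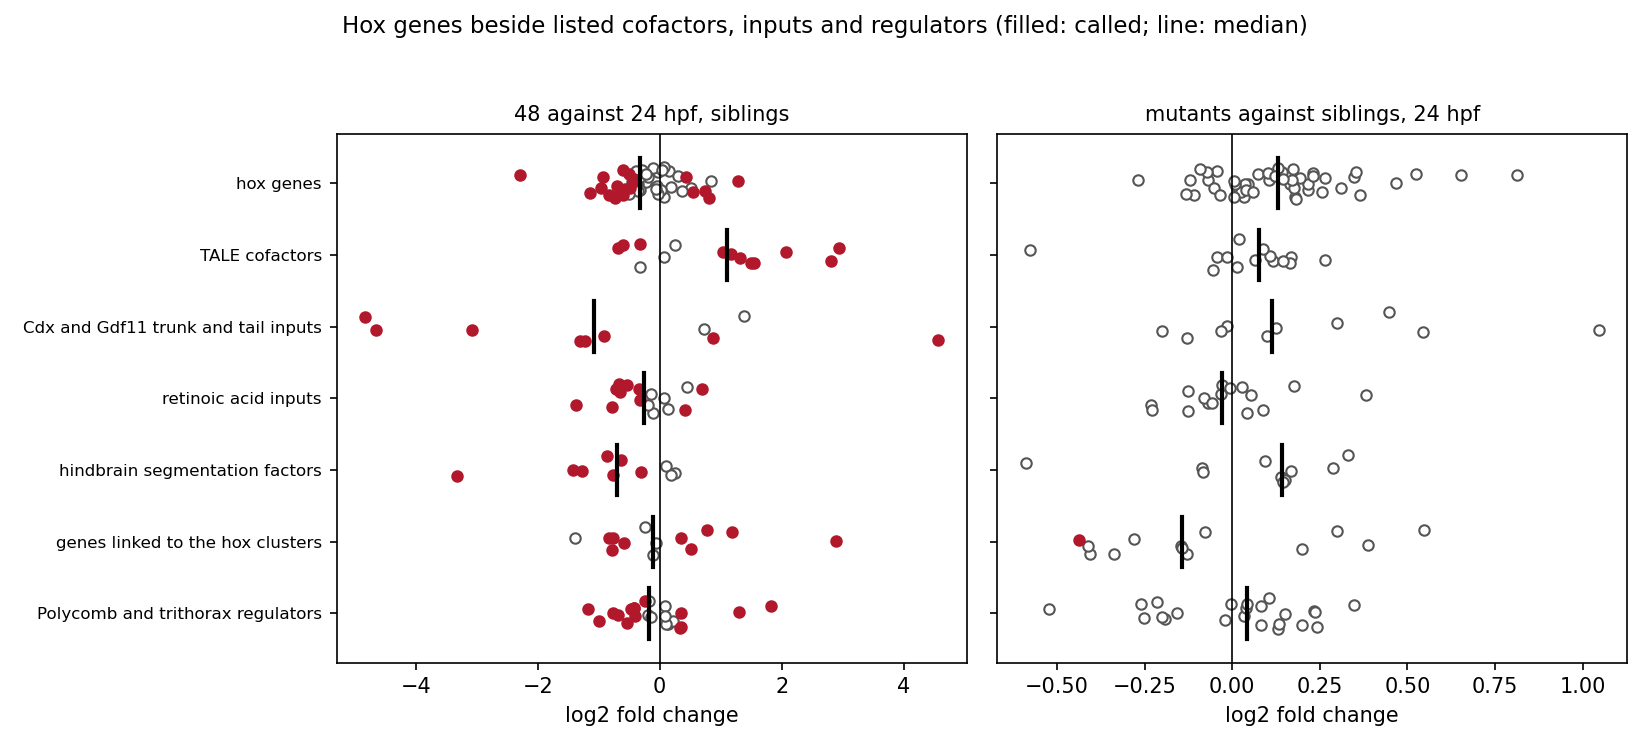
Log2 fold changes of the hox genes and of 6 lists of related genes, for 48 against 24 hpf in siblings (left) and mutants against siblings at 24 hpf (right); each point is a gene, filled where it passed the test, and black lines are medians. On the left the TALE cofactors have a median of 1.1, and the trunk and tail inputs one of -1.08; on the right 1 point, hnrnpa1a at -0.44, is filled.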

How the data were processed

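The authors deposited 1 table of raw, unnormalized read counts, with a row per gene and a column per library. Per the submitters' processing notes, the tools were FastQC 0.12.1, Trim Galore 0.6.10, STAR 2.7.10b and featureCounts 2.0.6, with the genome build GRCz11; the annotation, the strand setting and the handling of multi-mapping reads were not stated. Per the labels, libraries were made from TRIzol-extracted total RNA with a NEBNext Ultra kit, a kit that does not mark strand.

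All 14 libraries were fitted as 4 groups with edgeR 4.0.16 (limma 3.58.1, R 4.3.3; glmQLFit and glmQLFTest, TMM factors, filterByExpr with a minimum count of 10), which kept 24424 of 36109 genes (10 residual degrees of freedom, common dispersion 0.058). The SE came from the log2 fold change and its F statistic. CPM use TMM factors; they are not per length, so levels are not compared between genes. The fit was tested on simulated data. DESeq2 1.42.0, limma-voom, other size factors, other filters, a replicate block and leaving out each library were alternatives. RefSeq names and gene spans (GRCz12tu) gave overlaps only; of 134 listed names 2 matched by synonym and 2 were not found.

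The members and lists were chosen with earlier results of these data known. Named with every library were the 6 hox genes of smallest p per mutant contrast, and up to 6 rises and 6 falls per stage contrast; of each list, the 2 called members of smallest p. Other named genes were chosen after their values were seen.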

Additional observations from a re-analysis of the deposited data

Results flagged for a closer look

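In 4 of the 98 groups of 4 libraries checked, 1 library lay further from the others than Dixon's 95% limit, where chance alone gives about 1 in 20. In siblings at 24 hpf, hoxd3a was at 29.15 CPM in replicate 2, the library with a low mitochondrial share, against 33.7 to 34.5 CPM in the others. The tail and fin gene hoxa13a was at 2.342 CPM in sibling replicate 4, against 3.54 to 3.75 CPM. In mutants at 24 hpf, hoxc6a was at 11.89 CPM in replicate 3, against 9.82 to 10.1 CPM, and hoxb7a was at 12.96 CPM in replicate 1, against 12.2 to 12.3 CPM.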

How the results depend on the processing

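No hox gene was called between mutants and siblings with DESeq2, limma-voom, scaling by library size or by RLE factors, or either other filter. None of these fits held a replicate block. Replicate numbers were not shown to pair the libraries: correlations of same-numbered libraries were 0.07 to 0.31 at 24 hpf and 0.09 to 0.27 at 48 hpf, although 14 of 14 libraries correlated best with their own number, a hint from the data and not from the design. With the replicate block over all libraries, which joins equal numbers of both stages, 0 mutant calls were made. With the libraries of the stage only and the replicate block, 3 hox genes were higher at 24 hpf (hoxa3a, hoxb3a and hoxc1a). The cause was not tested. Leaving out 1 library gave 0 to 1 calls higher at 48 hpf. For the stage change, leaving out 1 library gave 3 to 7 rises in siblings, 1 to 4 rises and 12 to 21 falls in mutants. Leaving out both libraries of low mitochondrial share, an alternative chosen after seeing the data, gave 1 call higher at 24 hpf (hoxc12a) and 8 rises in siblings. It moved the median of central genes at 48 hpf to -0.071, of anterior genes for the difference between stages to -0.10, and of posterior genes in siblings to -0.083. Of the stage calls, 12 of 21 in siblings and 12 of 24 in mutants were made in all 15 alternatives. Depth limits genes with few reads, such as hoxa4a, with 11 to 47 reads per library, and hoxb1a, with as few as 8.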

Other observations

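Grouped by cluster instead of by paralogue number, the 7 genes of the aa cluster had the highest median at 24 hpf in mutants against siblings. It was 0.47 with 6 of 7 values positive, against medians of 0.04 to 0.17 in the other 6 clusters. None of these genes passed the test, and at 48 hpf the median was 0.09. The highest values were those of hoxa4a (0.81 ± 0.44) and hoxa11a (0.65 ± 0.33), with 11 to 47 and 31 to 97 reads per library. The annotated spans of all 7 overlap that of evx1. Between stages the 4 genes of the cb cluster had the lowest medians, -0.56 in siblings, where 2 fell, and -0.89 in mutants, where 3 fell and all 4 values were negative. In the bb cluster hoxb1b fell and hoxb6b rose in both genotypes, so genes of 1 cluster moved in opposite directions. The sibling call of hoxb6b held in only 8 of 15 alternatives, and the annotated spans of these genes overlap.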
